A study of Arabidopsis thaliana with 13 samples.

Results

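*MIR159a*, *MIR159b* and *MIR159c* are the 3 *Arabidopsis* loci that encode miR159, and they were followed here under the names ath-MIR159a, ath-MIR159b and ath-MIR159c among the 325 miRNA genes in the deposited expression table. Each locus was examined alone and as the sum of all 3. Small RNA had been sequenced from 13 libraries, of which 3 came from seedlings and 10 from inflorescences of floral induction (2 libraries each for days 0 and 4, 3 each for days 2 and 8). The values are RPM, read counts scaled by the mapped reads of a library. All plants, the seedlings included, were of the Landsberg ecotype with the genotype pAP1:AP1:GR *ap1 cal*, in which many floral meristems start to develop at the same time once the AP1-GR fusion protein is activated with dexamethasone (DEX). Seedlings (vegetative stage) and day 0 inflorescences were not treated, whereas the plants of days 2, 4 and 8 received DEX daily. The labels give 2 mM DEX, the methods 2 µM and the series description 1 µM. In this model AP1 is supplied only as the fusion protein under the AP1 promoter, and the uninduced plants lack both AP1 and its close relative CAL. The day 2 library numbered 1 carries a time label of 0 days beside a day 2 title and DEX as its agent, and was taken as day 2. Plant ages are not in the labels, and since only miRNA genes were measured the tissues could not be checked against marker genes.

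miR159 guides cleavage and translational repression of mRNAs of GAMYB-like factors, R2R3-MYB proteins that act in the gibberellin response, in anther and pollen development and in programmed cell death of the tapetum and the aleurone. *MIR159a* and *MIR159b* are known to act redundantly, and plants that lack both have curled leaves, small siliques and reduced fertility through ectopic *MYB33* and *MYB65*. miR319 is the closest relative of miR159 in sequence and mainly targets *TCP* genes of leaf and petal growth.

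The mature sequences are shown because they decide which reads can be assigned to which locus. They were read from the TAIR10.1 genome with the RefSeq annotation. Capitals mark the seed, bases 2 to 8 from the 5′ end.
miR159a: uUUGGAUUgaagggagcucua
miR159b-3p: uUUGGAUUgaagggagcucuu
miR159c: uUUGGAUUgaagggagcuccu
miR319a and miR319b: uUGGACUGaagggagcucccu
miR319c: uUGGACUGaagggagcuccuu

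The seed UUGGAUU was found in 3 of the 428 annotated mature miRNAs, which are the 3 shown. With positions counted from 1 at the 5′ end, miR159b-3p differs from miR159a by A21U alone, and miR159c differs from miR159a by U20C and A21U. Each 21-base sequence occurs once in the genome. Without its last base, however, the sequence of miR159a or miR159b-3p occurs at 2 places, in *MIR159a* and in *MIR159b*, while that of miR159c still occurs at 1. A read that lacks the final base therefore fits both *MIR159a* and *MIR159b*. The methods name the gene count mode of STAR, which counts reads with a single place and sets aside those with several. The deposited RPM do not show how many reads were set aside, and their part in the values below was not tested. miR319a and miR319b have the same 21 bases. When the miR319 sequences are shifted by 1 base, 17 to 19 of the 20 overlapping bases are those of a miR159.

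*MIR159a* (AT1G73687) lies at chr1:27713233-27713416 on the minus strand, *MIR159b* (AT1G18075) at chr1:6220646-6220841 on the plus strand and *MIR159c* (AT2G46255) at chr2:18994632-18994856 on the plus strand. None of them overlaps another annotated gene, and the nearest protein-coding genes are 1494, 1360 and 789 bases away. The annotated hairpins are 184, 196 and 225 bases long. They are shown since the reads were counted over these genes, with the mature miR159 in capitals on the 3′ arm.
MIR159a: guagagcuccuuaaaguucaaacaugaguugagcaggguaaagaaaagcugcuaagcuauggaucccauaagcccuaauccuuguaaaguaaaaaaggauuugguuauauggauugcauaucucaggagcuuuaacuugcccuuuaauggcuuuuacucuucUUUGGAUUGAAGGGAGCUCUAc
MIR159b: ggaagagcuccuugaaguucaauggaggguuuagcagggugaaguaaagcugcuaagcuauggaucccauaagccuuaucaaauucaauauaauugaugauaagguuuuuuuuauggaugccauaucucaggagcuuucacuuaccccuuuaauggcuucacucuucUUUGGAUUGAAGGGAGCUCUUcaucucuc
MIR159c: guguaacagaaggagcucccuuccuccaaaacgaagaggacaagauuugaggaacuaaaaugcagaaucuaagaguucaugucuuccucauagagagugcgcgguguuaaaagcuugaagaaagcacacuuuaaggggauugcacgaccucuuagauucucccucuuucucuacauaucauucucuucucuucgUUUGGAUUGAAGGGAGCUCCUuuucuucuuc

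The sites of miR159 in 8 known or likely target genes, the GAMYB-like *MYB* genes and *DUO1*, show where the end base matters. Sites were found without gaps in 1 transcript of each of 27444 protein-coding genes. The score adds 1 for a mismatch and 0.5 for a G:U pair, doubled opposite positions 2 to 13 of the miRNA, and a low score means a close match. In the sites, written as the mRNA strand in DNA letters, capitals mark bases without a Watson-Crick partner in miR159a.
MYB33 (chr5:1839579-1839599, plus strand): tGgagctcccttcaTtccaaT
MYB65 (chr3:3604151-3604171, plus strand): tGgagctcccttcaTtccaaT
MYB101 (chr2:13783168-13783188, minus strand): tagagctTccttcaaAccaaa
MYB104 (chr2:11501206-11501226, minus strand): tGgagctcccttcaTtccaaG
DUO1 (chr3:22343375-22343395, minus strand): tGgagctccAttcGatccaaa
MYB81 (chr2:11506466-11506486, minus strand): tCgagTtcccttcaTtccaaT
MYB120 (chr5:22324982-22325002, minus strand): AGCagctcccttcaaAccaaa
MYB97 (chr4:13528587-13528607, plus strand): ATgagctcTcttcaaAccaaa

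All 8 sites lie within coding sequence, and the site of *MYB33* is the same as that of *MYB65*, 2 genes that act together in anther development. At a score of at most 4, miR159a had a site in 8 of the genes searched (0.0292%), 5 of them among these 8 genes. miR159b-3p and miR159c each had a site in 7 genes (0.0255%), of which 4 and 6 were among the 8. The best site for miR159a was that of *MYB101*, with a score of 2.5, against 3.5 for miR159b-3p and 4.5 for miR159c. *MYB101* acts with *MYB97* and *MYB120* in pollen tubes. *MYB120* scored 4.5 with miR159a, 3.5 with miR159b-3p and 3 with miR159c, and *MYB97* 5, 4 and 4. The sites of *MYB33* and *MYB65* scored 3.5, 4.5 and 4 in the same order. *DUO1*, a regulator of male germ cell division, also scored 3.5, 4.5 and 4. These matches are a description of letters, and target mRNAs were not analysed here.

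*MIR159a* was the most abundant MIR159 locus in every inflorescence library. It had 6029 and 5317 RPM on day 0, 4576, 5268 and 4472 RPM on day 2, 3671 and 3527 RPM on day 4, and 3965, 4390 and 4404 RPM on day 8. Among inflorescences the day 0 libraries were the highest and the day 4 libraries the lowest. In seedlings it had 472, 821 and 479 RPM, all below every inflorescence library.

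*MIR159b*, which gives nearly the same miRNA, had 2489 and 2063 RPM on day 0 and 2018, 2356 and 2328 RPM on day 2. It had 623 and 559 RPM on day 4 and 522, 606 and 695 RPM on day 8. These 5 late libraries were all below the 5 early ones, and their range overlapped that of the seedlings, 450, 774 and 535 RPM.

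*MIR159c*, the lowest of the 3 loci in seedlings and up to day 4, had 446 and 466 RPM on day 0, 344, 401 and 439 RPM on day 2, 586 and 516 RPM on day 4, and 672, 846 and 712 RPM on day 8. It thus had its highest values on day 8 and its lowest inflorescence values on day 2. The seedlings had 40.9, 80.7 and 67.4 RPM, which rest on 15, 12 and 19 reads.

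**Figure D1:**
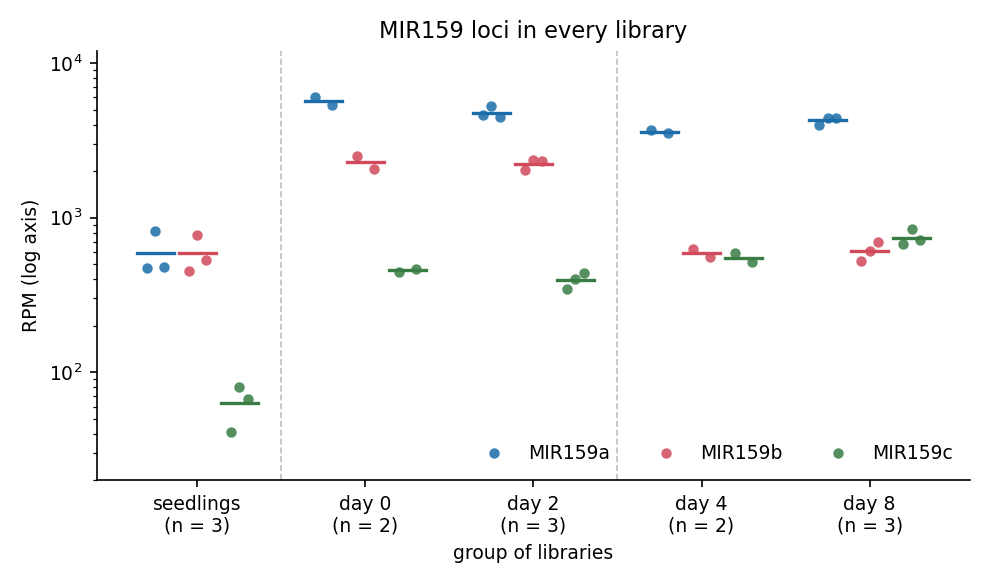
RPM of each MIR159 locus (log axis) in seedlings and in inflorescences of days 0, 2, 4 and 8, with 1 point per library and a bar at the mean of the group. Dashed lines separate the 3 sequencing runs. *MIR159b* lies at 2018 to 2489 RPM on days 0 and 2 and at 522 to 695 RPM on days 4 and 8.

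Depth and batches bear on these values. The size of the RPM step of 1 read put the mapped reads at 926300 to 2142752 in inflorescence libraries and at 148673 to 366691 in those of seedlings. *MIR159b* rested on at least 577 reads in each inflorescence library and *MIR159c* on at least 543. If libraries listed after a run's name in the deposited sheet belong to it, run 1 held the seedlings, run 2 the inflorescences of days 0 and 2, and run 3 those of days 4 and 8. Within a run only day 2 can be compared with day 0 and day 8 with day 4, and in every other contrast stage and run cannot be told apart. Day 0 plants had no DEX, so stage and treatment cannot be told apart in contrasts of later days with day 0. Whole organs were sampled, so fewer cells that express a locus and less RNA per cell cannot be told apart either.

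Among all miRNA genes of a library, *MIR159a* ranked 2 to 4 in inflorescences and 4 to 5 in seedlings. *MIR159b* ranked 5 to 8 in inflorescences and 4 to 6 in seedlings. *MIR159c* ranked 6 to 8 in inflorescences but 17 to 20 in seedlings. In each of the 10 inflorescence libraries *MIR159a* led. *MIR159b* came next until day 4, where its mean was 591 ± 45.1 RPM and that of *MIR159c* 551 ± 49.5 RPM (SD, n = 2). Within the day 4 libraries the ratio of *MIR159c* to *MIR159b* was 0.941 and 0.923. On day 8 *MIR159c* stood above *MIR159b* in 3 of 3 libraries. Per base of hairpin, *MIR159c* was above *MIR159b* in 2 of these 3. In seedlings *MIR159a* (590.3 ± 199 RPM; SD, n = 3) and *MIR159b* (586 ± 168 RPM; SD, n = 3) did not differ beyond their spread, and *MIR159a* was the higher in 2 of 3 libraries.

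The make-up of the MIR159 pool therefore differed between groups. *MIR159a* supplied 67.5 ± 0.36% of the summed RPM on day 0 (SD, n = 2), 64.5 ± 2.3% on day 2 (n = 3), 75.9 ± 1.0% on day 4 (n = 2) and 75.9 ± 0.87% on day 8 (n = 3). The share of *MIR159b* was 27.0 ± 1.0% on day 0, 30.2 ± 1.7% on day 2, 12.5 ± 0.44% on day 4 and 10.8 ± 1.0% on day 8. The share of *MIR159c* was 5.46 ± 0.68% and 5.34 ± 0.63% on days 0 and 2, and 11.6 ± 0.56% and 13.2 ± 1.1% on days 4 and 8. In seedlings the shares were 47.4 ± 2.7% for *MIR159a*, 47.5 ± 1.8% for *MIR159b* and 5.10 ± 1.0% for *MIR159c* (n = 3). The shallowest seedling library gives a 95% Wilson interval of 2.78 to 8.23% for the share of *MIR159c*, which covers counting error only. Within inflorescences the shares thus formed 2 sets, days 0 and 2 against days 4 and 8, which are also the 2 runs.

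**Figure D2:**
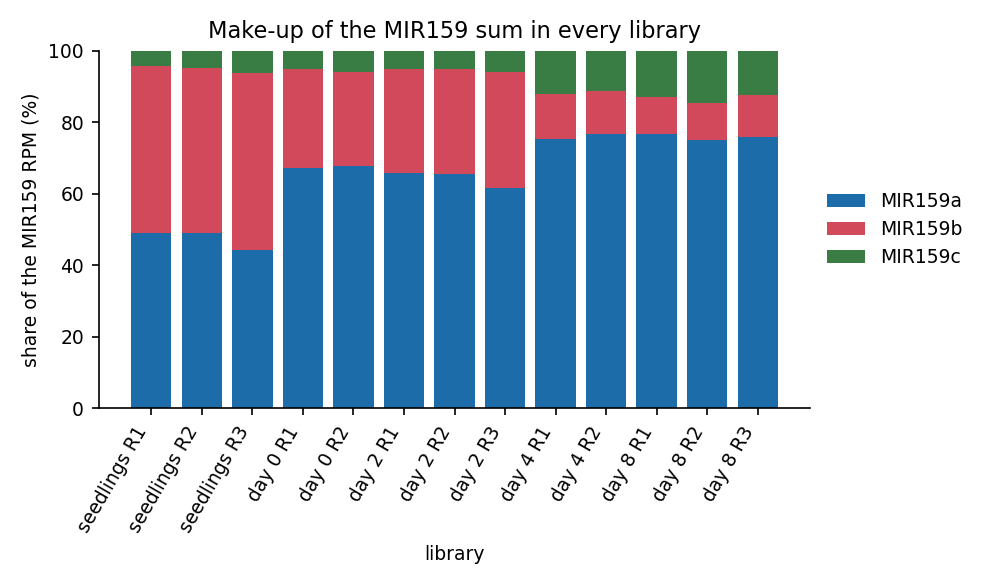
Share of *MIR159a*, *MIR159b* and *MIR159c* in the summed MIR159 RPM of each library (%, stacked bars, R1 to R3 are replicates). *MIR159b* makes up 46.2 to 49.5% in seedlings, 26.3 to 32.2% on days 0 and 2 and 10.11 to 12.8% on days 4 and 8.

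The question of the stage series is how miRNA genes change while flowers form, and no MIR159 locus passed the test between day 0 and day 2, a step within 1 run. The log2 differences were -0.25 for *MIR159a* (95% confidence interval -0.53 to 0.03), -0.02 for *MIR159b* (-0.36 to 0.31) and -0.21 for *MIR159c* (-0.57 to 0.14). The adjusted p from limma was 0.60, 0.98 and 0.71. Limma called 0% of the 137 genes tested at an adjusted p under 0.05, with 11 at an unadjusted p under 0.05, and edgeR called 0.

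Between day 2 and day 4, across runs, *MIR159b* fell and neither of the other loci passed the test. The mean of day 4 was 591 ± 45.1 RPM (SD, n = 2), 3.78-fold below the 2234 ± 187 RPM of day 2 (SD, n = 3). The log2 difference was -1.92 (SE 0.16, adjusted p = 2.6e-09 from limma), in a comparison where 12.4% of all genes were called. *MIR159a* had a log2 difference of -0.40 (SE 0.14, adjusted p = 0.055) and *MIR159c* one of 0.48 (SE 0.17, adjusted p = 0.061). Those 2 values lie next to the threshold, and both pass it when only genes with 10 RPM are tested (adjusted p = 0.026 and 0.032). That of *MIR159a* also passed with median-ratio scaling (-0.57, adjusted p = 0.0043) and when scaled to the summed miRNA RPM (-0.55, adjusted p = 0.00012). Other limma settings moved it away from the threshold. Its adjusted p was 0.39 without the intensity trend of the variance, 0.12 with the replicate number as a block and 0.40 in the fit of all 13 libraries. For *MIR159c* the adjusted p reached 0.43 over the settings other than leaving out 1 library. The median log2 difference of all genes was 0.05. In the authors' quantile-normalized table, where a value follows from the rank of a gene in its library, the call of *MIR159b* was lost (-0.25, adjusted p = 0.76), while *MIR159a* (-0.93, adjusted p = 1.1e-05) and *MIR159c* (1.46, adjusted p = 1.6e-08) passed. The rank of *MIR159b* had been 5 to 6 on day 2 and was 6 on day 4.

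Between day 4 and day 8, again within 1 run, no MIR159 locus passed the test. The means of day 8 were 1.18 times those of day 4 for *MIR159a*, 1.03 times for *MIR159b* and 1.35 times for *MIR159c*. *MIR159c* had the largest log2 difference of the 3, 0.43 (SE 0.17, adjusted p = 0.12 from limma, 95% interval 0.07 to 0.78). *MIR159a* had 0.24 (-0.04 to 0.52, adjusted p = 0.29) and *MIR159b* 0.03 (-0.30 to 0.37, adjusted p = 0.94). Of all genes, 14.6% were called. In the quantile-normalized table *MIR159c* passed (0.26, limma adjusted p = 0.0075).

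Over the longer spans, all across runs, *MIR159b* fell and *MIR159c* rose. From day 2 to day 8 log2 RPM of *MIR159b* fell by 1.88 (SE 0.15, limma adjusted p = 4.0e-10) and *MIR159c* rose by 0.91 (SE 0.15, adjusted p = 6.3e-05), 1.88-fold. *MIR159a* had a difference of -0.16 (SE 0.12, adjusted p = 0.33), and 36.5% of all genes were called. From day 0 to day 8 *MIR159b* fell by 1.91 (SE 0.16, adjusted p = 2.9e-09), *MIR159a* fell by 0.41 (SE 0.14, adjusted p = 0.022) and *MIR159c* rose by 0.70 (SE 0.17, adjusted p = 0.0033), where 28.5% of genes were called. The call of *MIR159a* was lost without day 0 replicate 1 (adjusted p = 0.25), day 8 replicate 1 (0.0648) or day 8 replicate 2 (0.052). With median-ratio scaling the rise of *MIR159c* from day 0 was 0.38 (adjusted p = 0.0925), while the difference of *MIR159a* from day 2 to day 8 passed (-0.49, adjusted p = 0.0029). Without the intensity trend of the variance the calls of *MIR159a* and *MIR159c* from day 0 to day 8 were also lost (adjusted p = 0.28 and 0.080), and in the quantile-normalized table so were those of *MIR159b* from day 2 (0.084) and from day 0 (0.37).

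Over all 4 stages the F test of limma called all 3 loci, against 32.8% of the 137 genes. It spans runs, so stage and run cannot be told apart in it. The adjusted p was 0.0067 for *MIR159a*, 3.6e-11 for *MIR159b* and 0.00032 for *MIR159c*. The largest ratio between stage means was 1.57 for *MIR159a*, 3.84 for *MIR159b* and 1.88 for *MIR159c*. The call of *MIR159a* was lost without day 0 replicate 1 (adjusted p = 0.072). Without the trend it was 0.29, and that of *MIR159c* 0.056. In the quantile-normalized table the adjusted p of *MIR159b* was 0.25.

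**Figure D3:**
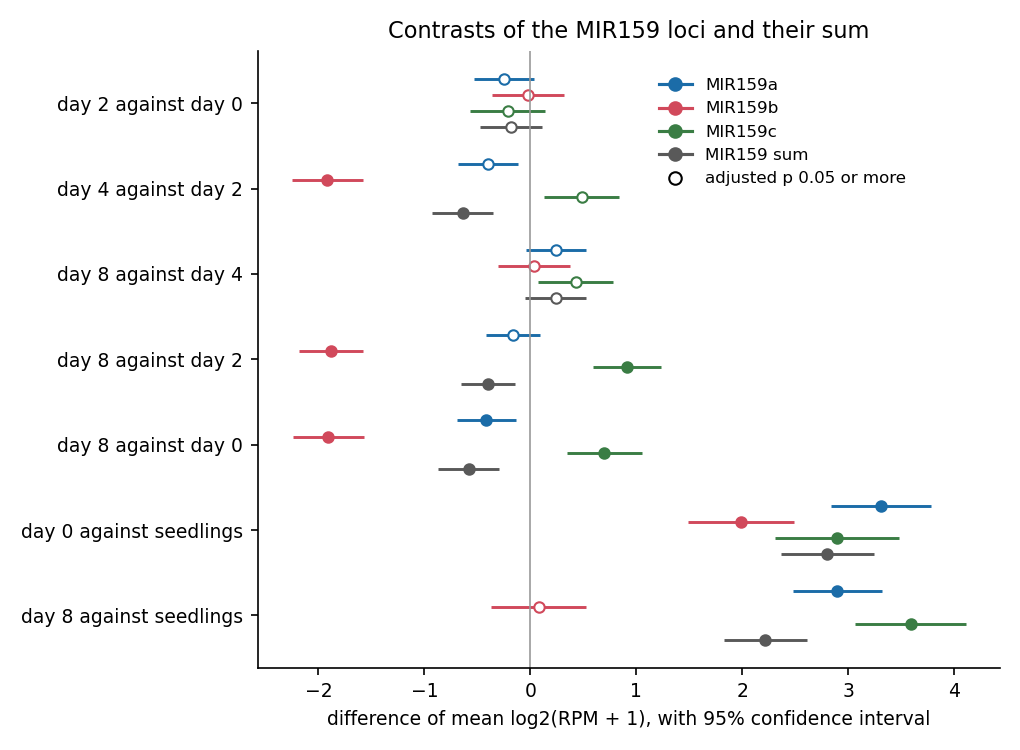
Differences of mean log2(RPM + 1) for each MIR159 locus and for the family sum in 7 contrasts, with 95% confidence intervals from limma (lines) and open symbols where the adjusted p is 0.05 or more. *MIR159b* lies near -1.9 in the 3 stage contrasts across runs and at 0.08 in day 8 against seedlings.

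Seedlings served as the vegetative reference, and day 0 inflorescences, uninduced like them, had more of each locus. *MIR159a* had the highest log2 difference of the 3, 3.31 (SE 0.22, limma adjusted p = 4.5e-08), followed by *MIR159c* with 2.89 (SE 0.27, adjusted p = 1.4e-06) and *MIR159b* with 1.99 (SE 0.23, adjusted p = 9.5e-06). In RPM these are ratios of 9.61, 7.24 and 3.88 between the means. Of the 153 genes tested, 45.8% were called, and the median difference of all genes was 0.59. On day 8 *MIR159a* and *MIR159c* were still above seedlings, by 2.90 (SE 0.19, adjusted p = 5.0e-08) and 3.59 (SE 0.24, adjusted p = 5.0e-08), where 49.7% of genes were called. *MIR159b* was not (0.08, 95% interval -0.37 to 0.53, adjusted p = 0.82). The seedlings differ from the inflorescences in tissue, depth and run at once, and from those of day 8 also in DEX treatment, which cannot be told apart. In the quantile-normalized table the difference of *MIR159b* between day 0 and seedlings turned to -0.76 (adjusted p = 0.19). There *MIR159a* was above seedlings by 1.06 on day 0 and by 0.28 on day 8 (adjusted p = 9.5e-06 and 0.031), and *MIR159c* by 3.02 and 4.75. On day 8 the difference of *MIR159b* from seedlings was -0.64 (adjusted p = 0.026) when RPM was scaled to the summed miRNA RPM.

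Summed over the 3 loci, MIR159 had 8965 and 7846 RPM on day 0, 6939, 8024 and 7240 RPM on day 2, 4880 and 4602 RPM on day 4, and 5159, 5842 and 5811 RPM on day 8. The early libraries were all above the late ones, and the seedlings, with 963, 1675 and 1081 RPM, were below all inflorescences. The family took 27.4 to 30.9% of all miRNA RPM in libraries of days 0 and 2, 16.5 to 18.6% on days 4 and 8, and 4.74 to 10.02% in seedlings.

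The sum did not pass the test from day 0 to day 2 (log2 difference -0.18, adjusted p = 0.62 from limma), where 0% of the 106 families were called and 10 had an unadjusted p under 0.05. It fell by 0.64 from day 2 to day 4 (SE 0.14, adjusted p = 0.0034), where 10.4% of families were called. The difference from day 4 to day 8 was 0.24 (SE 0.14, adjusted p = 0.32; 16.0% of families called). It fell by 0.40 from day 2 to day 8 (SE 0.12, adjusted p = 0.014; 36.8% called) and by 0.58 from day 0 to day 8 (SE 0.14, adjusted p = 0.0031; 28.3% called). The F test over the 4 stages, across runs, passed (adjusted p = 0.00038, 34.9% called). Of the fall in RPM between the means of day 2 and day 4, *MIR159b* made up 61.8% and *MIR159a* 44.1%, while *MIR159c* went the other way. Without *MIR159b* the sum of the other 2 loci gave -0.31 from day 2 to day 4 (adjusted p = 0.18). Without the trend none of the falls of the sum passed (adjusted p = 0.10 to 0.18), nor did the F test (0.082). The fall from day 2 to day 4 was also lost without day 4 replicate 2 (adjusted p = 0.058), that from day 2 to day 8 without day 8 replicate 1 (0.052) and that from day 0 to day 8 without day 0 replicate 1 (0.071). Against seedlings the sum was higher on day 0 by 2.80 (SE 0.20, adjusted p = 2.0e-07; 46.1% of 115 families called) and on day 8 by 2.22 (SE 0.18, adjusted p = 6.3e-07; 51.3% called). The second of these calls was lost in the quantile-normalized table (0.16, adjusted p = 0.19).

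Whether the loci differed in their course was tested on the ratio between loci, which does not depend on the scaling of a library. For each library log2((RPM + 1)/(RPM + 1)) was taken of every pair of loci of 1 family. The ratio of *MIR159b* to *MIR159a* was 0.413 and 0.388 on day 0, 0.441, 0.447 and 0.521 on day 2, 0.170 and 0.159 on day 4, and 0.132, 0.138 and 0.158 on day 8. It was 0.954, 0.943 and 1.12 in seedlings, above all inflorescences.

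From day 2 to day 4 the log2 ratio of *MIR159b* to *MIR159a* fell by 1.51 (SE 0.25, adjusted p = 0.0013 from limma), that of *MIR159c* to *MIR159a* rose by 0.89 (SE 0.27, adjusted p = 0.033) and that of *MIR159c* to *MIR159b* rose by 2.40 (SE 0.27, adjusted p = 0.00018). Of the 42 within-family pairs tested, 28.6% were called. The rise of *MIR159c* relative to *MIR159a* was lost without day 2 replicate 1 (adjusted p = 0.11), day 2 replicate 2 (0.0898), day 4 replicate 1 (0.14) or day 4 replicate 2 (0.074). From day 4 to day 8, within 1 run, none of the 3 ratios passed (adjusted p = 0.42 to 0.71), against 9.52% of pairs. The interval of the log2 ratio of *MIR159c* to *MIR159b*, -0.22 to 1.01, includes 0 as well as a 2-fold rise.

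Across the 4 stages all 3 ratios passed the F test (adjusted p = 0.00091 for *MIR159b* to *MIR159a*, 0.011 for *MIR159c* to *MIR159a* and 4.8e-05 for *MIR159c* to *MIR159b*), against 31.0% of pairs. An exact permutation test over the 25200 arrangements of the 10 libraries gave p = 0.000635, 0.0084 and 0.0021, and 0.0019, 0.0084 and 0.0031 when adjusted over these 3. Both tests span runs, and the permutations exchanged libraries between runs, so stage and run cannot be told apart in them. Against seedlings, 60 pairs were tested. The log2 ratio of *MIR159b* to *MIR159a* was lower by 1.32 on day 0 (difference -1.32, SE 0.35, adjusted p = 0.0091; 40.0% of pairs called) and by 2.82 on day 8 (difference -2.82, SE 0.31, adjusted p = 1.4e-05; 41.7% called). The first of these was lost without day 0 replicate 1 (adjusted p = 0.051). That of *MIR159c* to *MIR159b* was higher by 3.51 on day 8 (SE 0.32, adjusted p = 4.4e-06), and its difference on day 0 was 0.90 (SE 0.36, adjusted p = 0.068). The ratio of *MIR159c* to *MIR159a* did not pass on day 0 (-0.42, 95% interval -1.25 to 0.41) or on day 8 (0.69, -0.05 to 1.43).

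**Figure D4:**
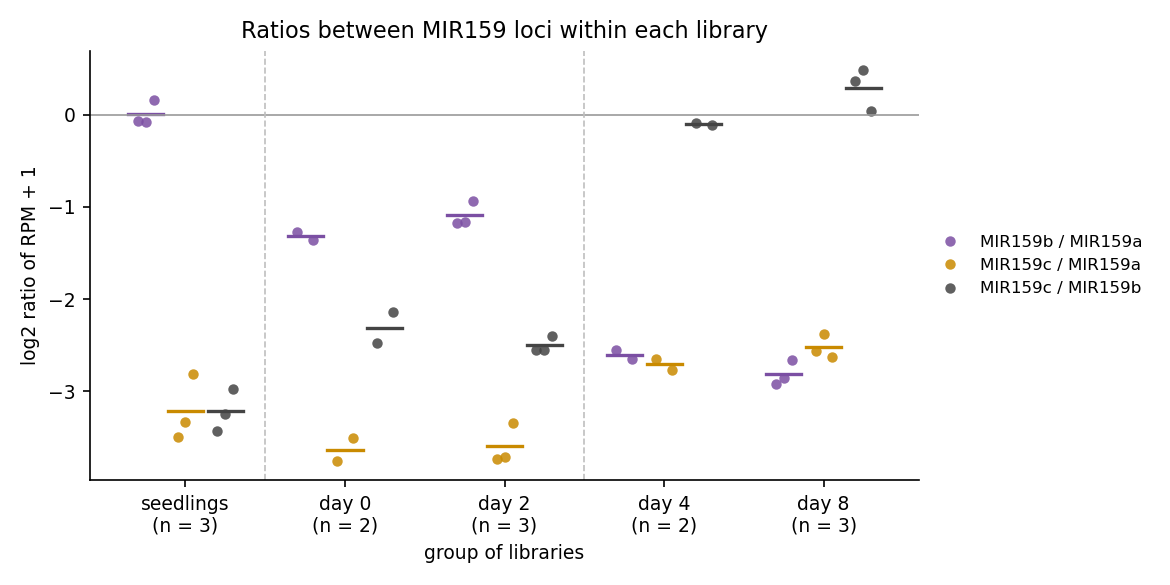
Log2 ratio of RPM + 1 between pairs of MIR159 loci in each library (points) with the mean of the group (bars); dashed lines separate the 3 sequencing runs. The ratio of *MIR159b* to *MIR159a* has means of 0.00 in seedlings, -1.32 and -1.09 on days 0 and 2, and -2.61 and -2.81 on days 4 and 8.

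The MIR319 loci, closest to MIR159 in sequence, were all called between day 2 and day 4, the step where *MIR159b* fell and 12.4% of all genes were called. *MIR319b* fell from 2566 to 3053 RPM on day 2 to 164.1 and 125 RPM on day 4 (log2 difference -4.25, SE 0.19, adjusted p = 4.7e-15 from limma). *MIR319a* rose by 0.71 (SE 0.14, adjusted p = 0.00078), and *MIR319c* rose by 0.99 (SE 0.18, adjusted p = 0.00021). *MIR319a* and *MIR319b* have the same mature sequence, so a read of these 21 bases fits both loci. In the gene count mode named in the methods such reads are set aside, and the values of these 2 loci would then rest on other reads. This was not tested. The step from day 2 to day 4 is also the change of run, and 1 locus of each family was called as lower there. Between day 4 and day 8 *MIR319b* fell further (-1.31, SE 0.19, adjusted p = 2.4e-05), and between day 0 and day 2 none of the 3 passed. All 3 were above seedlings on day 0, by 7.10 for *MIR319a*, 5.72 for *MIR319b* and 2.73 for *MIR319c* (adjusted p = 1.0e-08, 1.0e-08 and 1.2e-06), where 45.8% of all genes were called. On day 8 *MIR319a* and *MIR319c* were, where 49.7% were called.

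**Figure D5:**
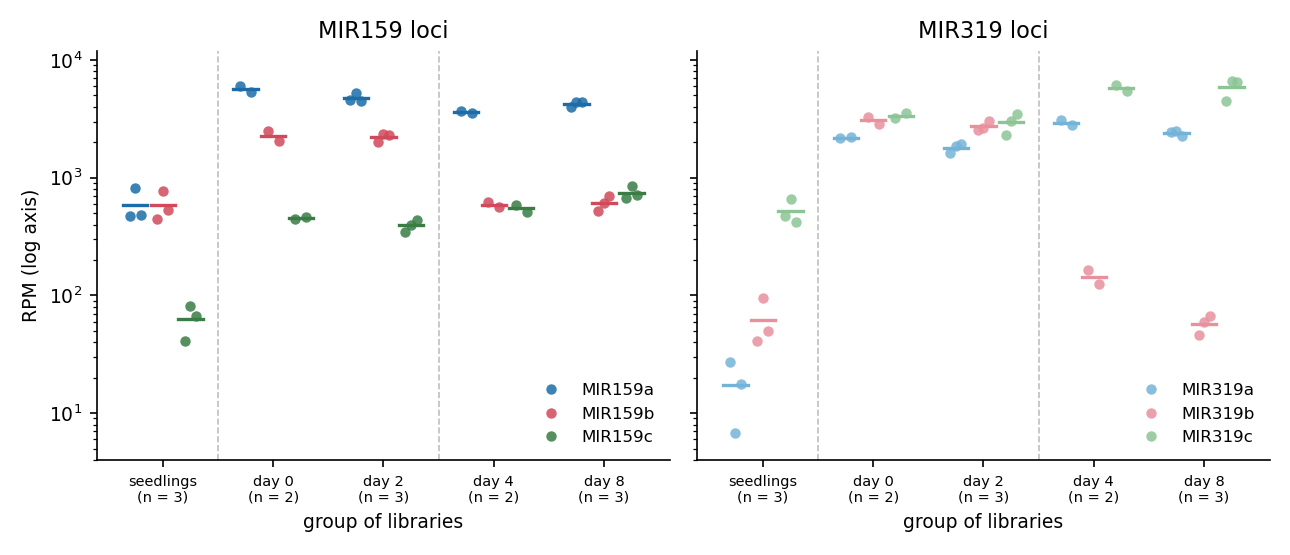
RPM (log axis) of the MIR159 loci (left) and the MIR319 loci (right) by library, with bars at group means and dashed lines between the 3 sequencing runs. *MIR319b* goes from 2566 to 3314 RPM on days 0 and 2 to 46.5 to 164.1 RPM on days 4 and 8, a larger fall than that of *MIR159b* at the same place.

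Of the other families whose miRNAs target *MYB* genes, MIR828 and MIR858, 2 of 3 loci were tested in inflorescences. *MIR858a*, whose miRNA targets *MYB* genes of flavonoid synthesis, had 18.8 to 20.51 RPM on day 4 and 37.9 to 40.5 RPM on day 8, within 1 run. Its log2 level rose by 0.96 (SE 0.27, limma adjusted p = 0.015) and was listed at 0 in all 3 seedling libraries. *MIR858b* did not pass in any stage contrast. It passed as higher than seedlings on day 8 (log2 difference 1.86, SE 0.54, limma adjusted p = 0.011), where 49.7% of all genes were called. It had 0.698 to 6.89 RPM on day 8 and was also listed at 0 in seedlings, where 1 read is worth 2.73 to 6.73 RPM. That call can therefore not be told from a lack of depth in seedlings. The median of both tested loci from day 4 to day 8 was 0.65, against 0.15 over all 137 genes, of which 14.6% were called.

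Of the 19 loci of the families MIR160, MIR164, MIR165, MIR166 and MIR167, whose miRNAs target regulators of organ formation and auxin response, 14 were tested. Between day 2 and day 4, 3 fell and 0 rose, where 12.4% of all genes were called (7 higher and 10 lower). *MIR164a*, of the family that restricts *CUC* genes at organ boundaries, had 5.14 to 10.3 RPM on day 2, and the table gives 0 for it in each library of day 4. *MIR167a*, of the family that targets *ARF6* and *ARF8*, fell by 2.19 on that scale (SE 0.25, adjusted p = 2.5e-07). *MIR167d* had 2.20 to 3.73 RPM on day 2 and likewise 0 on day 4 (adjusted p = 0.0027). The median of the 14 was -0.22, against 0.05 over all genes.

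Between day 4 and day 8 *MIR167a* rose by 1.62 (SE 0.25, adjusted p = 4.5e-05) and *MIR164c* fell by 1.51 (SE 0.31, adjusted p = 0.0012), 2 of 14 where 14.6% of all genes were called. Between day 0 and day 8, 5 of 14 fell (*MIR164a*, *MIR164c*, *MIR166a*, *MIR167a* and *MIR167d*) and 0 rose, where 28.5% of all genes were called (25 higher and 14 lower). The same 5 fell between day 2 and day 8, where 36.5% were called (32 higher and 18 lower). On day 0, 5 of 15 passed as higher than in seedlings (*MIR164a*, *MIR164c*, *MIR165a*, *MIR165b* and *MIR166a*) and 2 as lower (*MIR166e* and *MIR167c*), a share near the 45.8% of all genes. On day 8, 4 passed as higher (*MIR160a*, *MIR165a*, *MIR165b* and *MIR166a*) and *MIR166e* and *MIR167c* again as lower, 6 of 15 against 49.7% of all genes. *MIR165b* was listed at 0 in seedlings. It had 1.5997 to 2.502 RPM on day 0 and 1.27 to 2.58 RPM on day 8. These values are below the worth of 1 read in each seedling library, so its calls cannot be told from a lack of depth. *MIR164a* had 4.38 to 9.60 RPM on day 0 and 0 to 2.73 RPM in seedlings, at most 1 read in a library. A lack of depth cannot be told apart for its call either. *MIR160a* had 5.08 to 7.75 RPM on day 8 and 0 to 6.73 RPM in seedlings, ranges that overlap. *MIR166e* had 0 to 2.40 RPM on day 0 and 0 to 1.27 RPM on day 8. In seedlings it had 2.73 to 13.5 RPM, where 1 read is worth 2.73 to 6.73 RPM. *MIR166a*, of the family that restricts HD-ZIP III genes of organ polarity, had 296 and 331 RPM on day 0 and 180 to 217 RPM on day 8.

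As a description, the genes most like each MIR159 locus over the 10 inflorescence libraries were ranked by the root mean square difference of centred log2(RPM + 1) among 40 other genes with a mean of at least 10 RPM. Closest to *MIR159a* were *MIR166a* (0.19, Pearson r = 0.75), *MIR823* (0.29, r = 0.21) and *MIR403* (0.32, r = 0.70). Closest to *MIR159b* were *MIR827* (0.35, r = 0.96), *MIR403* (0.63, r = 0.86) and *MIR167a* (0.69, r = 0.72). Those 3 distances are larger than the ones of the other loci. Closest to *MIR159c* were *MIR158a* (0.20, r = 0.86), *MIR858a* (0.20, r = 0.92) and *MIR8169* (0.22, r = 0.87). These libraries share runs and scaling, so the distances hold both stage and run.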

How the data were processed

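Small RNA libraries of seedlings (n = 3) and of inflorescences of days 0 (n = 2), 2 (n = 3), 4 (n = 2) and 8 (n = 3) were used. The authors trimmed reads with Trim Galore (minimum length 17), mapped them to TAIR10 with STAR (at most 10 places, mismatch share at most 0.03) and counted them per miRNA gene, and deposited RPM, reads scaled by the mapped reads of a library. No STAR or Trim Galore version is stated for the small RNA reads. The labels name a total RNA kit and the methods a small RNA kit. A second deposited table holds RPM after quantile normalization of 169 genes. 3 libraries of a table named as including outliers match no sample and were not used, nor were pooled columns.

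Levels are mean ± SD of RPM. Differences were tested with limma 3.58.1 (R 4.3.3) on log2(RPM + 1), which understates changes of low genes, with an intensity trend for genes and families and none for pairs. Genes with at least 1 RPM in at least 2 fitted libraries were kept (137 of 10 inflorescence libraries, 153 of 13), with Benjamini-Hochberg adjustment over all of them and a threshold of 0.05. The methods call the libraries biological replicates and the labels do not say that they came from separate plants, so that p-values cover the spread between libraries, which may be technical. In each library 100% of RPM values were whole multiples of 1 step (tolerance 0.02 reads), although 7 libraries held fewer than 100 low values. edgeR 4.0.16 (quasi-likelihood) on these reads, added after the data were seen, called 16 genes between day 2 and day 4, 17 between day 4 and day 8, 46 between day 2 and day 8, 37 between day 0 and day 8, 51 between seedlings and day 0 and 43 between seedlings and day 8. Replicates were separate libraries, since counts of all 11 pairs differed beyond sampling noise (chi-square per degree of freedom 2.54 to 12.3). The limma step was tested on simulated data. Named are the 3 loci and their sum, the members of 3 lists (MIR319; MIR828 and MIR858; MIR160, MIR164, MIR165, MIR166 and MIR167) that passed in the contrasts described, and the 3 genes nearest each locus. The members and lists were chosen with earlier results of these data known. Sequences and places are from TAIR10.1 (RefSeq), and the deposited tables hold no coordinates. Tables were handled with Python 3.11.15, pandas 2.3.3, numpy 2.4.6 and scipy 1.17.1.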

Additional observations from a re-analysis of the deposited data

How the results depend on the processing

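Of 965 values of 47 results under 30 settings, 891 kept their direction and side of the threshold, and values below are log2 differences. Without the trend the calls of the sum were lost over the stages (0.82), day 4 against 2 (-0.64), day 8 against 0 (-0.58) and day 8 against 2 (-0.40), as were those of *MIR159a* (0.65 over the stages, -0.41 day 8 against 0) and *MIR159c* (0.91 and 0.70). The fit of all 13 libraries lost the same calls except that of the sum over the stages. The sum without *MIR159b* gave -0.31, -0.29 and -0.047 for day 4 against 2, day 8 against 0 and day 8 against 2. In the quantile-normalized table the sum was 0.079 for day 2 against 0 and 0.16 for day 8 against seedlings (call lost), and *MIR159a* -0.93 for day 4 against 2 and -0.78 for day 8 against 2. There *MIR159b* gave 1.00 over the stages, -0.76 for day 0 against seedlings, 0.38 for day 2 against 0, -0.25 for day 4 against 2, -0.62 for day 8 against 0, -1.001 for day 8 against 2, -0.75 for day 8 against 4 and -1.38 for day 8 against seedlings, and *MIR159c* 1.46 for day 4 against 2 and 0.26 for day 8 against 4. Median-ratio scaling gave *MIR159a* -0.57 (day 4 against 2) and -0.49 (day 8 against 2), *MIR159b* -0.12 (day 8 against 4) and -0.45 (day 8 against seedlings), and *MIR159c* 0.38 (day 8 against 0). It moved the median of all genes by -0.12 to -0.23 in the stage contrasts across runs, and turned the split of calls from day 2 to day 8 to 26 higher and 24 lower. Scaling to summed miRNA RPM gave *MIR159a* -0.55 and -0.42, and *MIR159b* 0.072 (day 2 against 0), -0.076 (day 8 against 4) and -0.64 (day 8 against seedlings). *MIR159a* passed for day 4 against 2 with a pseudocount of 0.5 (-0.40) and a minimum of 10 RPM (-0.40), where *MIR159c* passed too (0.48). Ratios passed with a minimum of 10 RPM (*MIR159c* to *MIR159a* 0.69 on day 8, *MIR159c* to *MIR159b* 0.90 on day 0, against seedlings) and a pseudocount of 5 (0.61 and 0.83). The cause was not tested.

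Leaving out 1 library changed calls or signs within these ranges: the sum -0.69 to -0.58 (day 4 against 2), -0.68 to -0.49 (day 8 against 0) and -0.45 to -0.34 (day 8 against 2), *MIR159a* 0.56 to 0.74 (stages), -0.45 to -0.33 (day 4 against 2) and -0.51 to -0.32 (day 8 against 0), *MIR159b* -0.16 to 0.11 (day 2 against 0), -0.069 to 0.14 (day 8 against 4) and -0.092 to 0.30 (day 8 against seedlings), and *MIR159c* 0.39 to 0.58 (day 4 against 2). The ratio of *MIR159b* to *MIR159a* ranged from -1.37 to -1.24 (day 0 against seedlings), that of *MIR159c* to *MIR159a* from 0.82 to 1.01 (day 4 against 2) and that of *MIR159c* to *MIR159b* from 0.74 to 1.07 (day 0 against seedlings). *MIR159a* passed for day 4 against 2 without day 2 replicate 1 or day 8 replicate 1, and *MIR159c* without day 2 replicate 3.

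Deviations from the group mean correlated at -0.17 to 0.15 over 13 pairs of same-numbered libraries and at -0.15 to 0.17 over 24 others. In a group of 2 libraries these deviations mirror each other. The ranges are therefore not independent and cannot decide whether replicate numbers pair the libraries. With the replicate number as a block, *MIR159a* was -0.40 for day 8 against 0 (adjusted p from limma 0.097) and *MIR159b* -0.034 for day 8 against 4, and 2 instead of 4 pairs were called from day 4 to day 8.

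Some counts of calls moved by over 1.5 times. With a minimum of 10 RPM they went from 50 to 31 genes and from 39 to 25 families (day 8 against 2), from 70 to 43 and from 53 to 33 (day 0 against seedlings) and from 76 to 41 and from 59 to 32 (day 8 against seedlings), and from 12 to 6 pairs (day 4 against 2), 13 to 7 (stages), 24 to 14 and 25 to 15 (seedlings). The fit of all 13 libraries called 23 instead of 39 genes and 17 instead of 30 families for day 8 against 0, and 24 instead of 39 families for day 8 against 2, 11 instead of 17 for day 8 against 4 and 24 instead of 37 over the stages. edgeR called 43 instead of 76 genes for day 8 against seedlings. Without day 4 replicate 1, 12 instead of 20 genes and 6 instead of 17 families were called from day 4 to day 8, and without day 4 replicate 2, 4 instead of 11 families from day 2 to day 4. Without day 0 replicate 1, 19 instead of 30 families were called for day 8 against 0 and 15 instead of 24 pairs for day 0 against seedlings. The 4 pairs called from day 4 to day 8 became 1 to 7 under other settings. Exact permutation was not run on pairs of groups, since 3 libraries against 3 cannot give a p under 0.1.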
